A study of Mus musculus with 15 samples.

Results

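Genes whose response to running differed between frailty groups were examined one by one in the gastrocnemius, a calf muscle. The quantity was the frailty by running interaction, the log2 fold change of High Run over High Control mice minus that of Low Run over Low Control mice. A positive interaction means that the response lay higher in High than in Low mice. All 15 mice entered the comparison, and of 16920 genes with enough counts to be tested, the 16304 outside the mitochondrial gene sets are described here, the 616 others being left out.

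The mice were female C57BL/6JN animals older than 17 months at entry, scored on 5 frailty markers. The Low group, labelled robust, had at most 1 positive marker and the High group, labelled frail, at least 2. Run mice ran downhill on a treadmill on 2 consecutive days and were sampled 24 h after the last bout, and Control mice stayed in their cages. There were 4 Low Control (D8, D9, D11 and D98), 4 Low Run (D57, D61, D66 and D68), 3 High Control (D23, D25 and D67) and 4 High Run mice (D49, D52, D53 and D62), and values by mouse are given below in that order. Frailty was a grouping of aged mice of 1 sex and 1 strain by score, assigned from the marker totals once tissues had been taken, and no gene was altered. No mice were sampled before running or at another time.

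Downhill running makes muscle lengthen under load, which strains sarcomeres and is followed over days by stress signalling, entry of immune cells and repair. Muscle fibres answer contraction within minutes through immediate early transcription factors such as Fos and Egr1, and they adjust protein breakdown through FoxO factors, which switch on the ubiquitin ligases Trim63 and Fbxo32. Bulk RNA of a muscle also carries transcripts of nerve, blood, vessel and immune cells, and in bulk samples fewer cells of a type and less RNA per cell cannot be told apart.

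Each mouse gave between 19395125 and 30699216 counts. Summed CPM (counts relative to library size, scaled by TMM) of 8 skeletal muscle markers ran from 115218 to 179556, and all 8 were detected in every group. Low Control mouse D9 and High Run mouse D62 stood apart, at -90.3 and -58.1 on the first principal component against -19.7 to 27.8 for the other mice. A gene that is high in both of these mice has a higher interaction through each of them, and where the p of a gene whose interaction is printed was over 0.05 without both mice, or its interaction differed by over 1.5 times, the value without them is given too.

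No gene passed the adjusted threshold of 0.1 in edgeR's quasi-likelihood test, which is 0% of the genes tested, and the smallest adjusted p outside the mitochondrial sets was 0.60. DESeq2 and limma voom also called 0 genes. With an unadjusted p under 0.05 the fit gave 873 genes with a positive and 412 with a negative interaction, where over all genes tested 5.24% were positive and 2.69% negative. With offsets for gene length and GC content the same counts were 662 and 536. Gene length here is that of the exons of all transcripts merged. Its median was 6510 bases in the positive genes, 2650 in the negative genes and 3860 over all genes outside the mitochondrial sets. DESeq2 gave 1607 and voom 1682 genes with an unadjusted p under 0.05 in both directions together. DESeq2 was run on all genes with any count, a larger set than the filtered one used by edgeR and voom. Where a p is said below to be under or over 0.05 it is the unadjusted edgeR value, and an interaction with a p under 0.05 had an adjusted p of 0.60 for every gene named or listed here. The genes are therefore described by their values, each interaction being given on the log2 scale with its standard error (SE), and no gene is called changed. The interaction p was under 0.05 unless stated.

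Among the 873 positive genes, 835 were lower in Low Run and higher in High Run than in their Controls, 19 were higher in both and 19 lower in both. Of the 412 negative genes, 393 were higher in Low Run and lower in High Run. The Low response was the larger one in size in 71.4% of the positive and 60.9% of the negative genes, against 58.8% of all genes outside the mitochondrial sets. High Control lay below Low Control in 871 of the 873 positive genes, and the difference between the Control groups was larger in size than that between the Run groups in 79.5% of them, against 62.5% of all genes. These signs are largely fixed by choosing genes on the interaction and are given as a description.

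**Figure D1:**
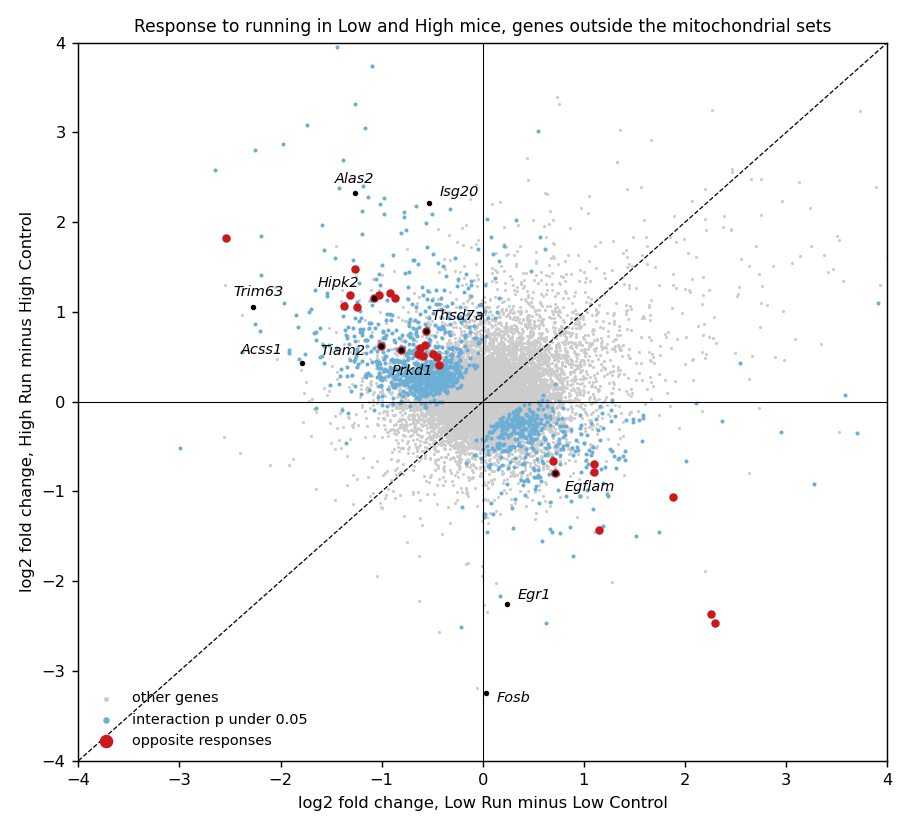
Each point is a gene outside the mitochondrial sets, with the log2 fold change of Low Run over Low Control on the x axis and of High Run over High Control on the y axis. Blue genes have an interaction p under 0.05, red genes have responses of opposite sign with p under 0.05 in both frailty groups, black points carry a name, the dashed line marks equal responses, and 17 genes lie outside the range of 4 on either side. The blue genes fill the upper left and lower right, away from the dashed line.

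Genes with responses of opposite sign, each with an unadjusted p under 0.05 in its frailty group, numbered 28. They comprised 19 that were lower in Low Run and higher in High Run mice, where the share over all genes tested was 0.118%, and 9 the other way round, against 0.0532%. Of these 28 genes, 16 are protein-coding with a mean of at least 1 CPM over all mice, and 3 of the 16 were higher in Low Run mice.

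Prkd1 encodes protein kinase D1, a kinase that phosphorylates class II histone deacetylases. Prkd1 stood at 4.95, 3.77, 4.38 and 4.01 CPM in the Low Control mice and at 1.85, 2.7, 2.47 and 2.76 CPM in the Low Run mice. Prkd1 was 2.63, 3.88 and 3.54 CPM in the High Control mice and 4.24, 4.21, 4.53 and 6.99 CPM in the High Run mice. Prkd1 lies at chr12:50341231-50649098 (GRCm38, minus strand). Every Low Run mouse lay below every Low Control mouse and every High Run mouse above every High Control mouse, and the interaction was 1.38 (SE 0.31), with log2 responses of -0.81 (SE 0.22) in Low and 0.58 (SE 0.23) in High mice. Without D9 and D62 it was 1.23 (p under 0.05).

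Thsd7a, a thrombospondin-domain protein of endothelial cells, had the same layout. Thsd7a stood at 3.25, 4.26, 4.42 and 3.47 CPM in the Low Control mice and at 2.69, 2.49, 3.15 and 2.11 CPM in the Low Run mice. Thsd7a was 1.43, 2.29 and 2.06 CPM in the High Control mice and 4.07, 2.99, 2.62 and 3.65 CPM in the High Run mice. Neither frailty group had overlap between Run and Control, and the interaction was 1.35 (SE 0.32). It was 1.25 (p under 0.05) without D9 and D62.

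Kmt2a encodes a methyltransferase of histone H3 lysine 4. Kmt2a stood at 45.3, 71.4, 38.6 and 44.4 CPM in the Low Control mice and at 28, 35.7, 33.8 and 30.4 CPM in the Low Run mice. Kmt2a was 32.7, 29.9 and 31.6 CPM in the High Control mice and 48.7, 48.9, 31.1 and 53.6 CPM in the High Run mice. Low Run mice all lay below Low Control mice, while among High Run mice D53 lay within the Control range and the other 3 above it. The interaction was 1.18 (SE 0.29), and 0.87 (p under 0.05) without D9 and D62. Srcap, the ATPase of a complex that places histone variant H2A.Z, read 7.68, 7.7, 10.9 and 7.8 CPM in Low Control, 2.98, 6.31, 6.82 and 1.9 in Low Run, 3.36, 4.14 and 1.91 in High Control and 10.7, 9.88, 2.95 and 5.7 in High Run mice. D53 was again the High Run mouse within the Control range, and the interaction was 2.12 (SE 0.61).

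Myh10 encodes the heavy chain of nonmuscle myosin IIB. Myh10 stood at 29.2, 30.2, 46.5 and 38.1 CPM in the Low Control mice and at 17.1, 29.6, 26.1 and 21.1 CPM in the Low Run mice. Myh10 was 27.5, 18.5 and 21 CPM in the High Control mice and 36.1, 43.3, 24.1 and 31.4 CPM in the High Run mice. Groups overlapped in both frailty groups, through D61 in Low Run and D53 in High Run, and the interaction was 1.21 (SE 0.32). Kif13b, a kinesin motor, had an interaction of 0.95 (SE 0.29, 0.63 with length and GC offsets with p under 0.05). Tiam2, an exchange factor for the GTPase Rac, had one of 1.63 (SE 0.38), and its highest value, 13.9 CPM, was that of mouse D9.

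Cds2 makes CDP-diacylglycerol, a precursor of phosphoinositides. Cds2 stood at 67.7, 102, 75.8 and 68.8 CPM in the Low Control mice and at 41.9, 60.3, 61.2 and 44.5 CPM in the Low Run mice. Cds2 was 54.1, 48.6 and 49.2 CPM in the High Control mice and 81.7, 81.7, 47.4 and 77.7 CPM in the High Run mice. Low Run mice lay below all Low Control mice, and in High Run mice only D53, at 47.4 CPM, did not exceed the Controls. The interaction was 1.11 (SE 0.28).

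Hipk2, a nuclear kinase, had an interaction of 2.24 (SE 0.7). Hipk2 stood at 33.8, 23, 55.4 and 56.6 CPM in the Low Control mice and at 13.7, 19.1, 32.4 and 14.5 CPM in the Low Run mice. Hipk2 was 20.4, 17 and 13.1 CPM in the High Control mice and 71.9, 49.2, 12.3 and 17 CPM in the High Run mice. In High Run mice the 2 values above the Control range were those of D49 and D52, while D53 and D62 did not exceed the Controls. The interaction was 2.68 (p under 0.05) without D9 and D62. The gene 1700109H08Rik had an interaction of 1.2 (SE 0.38).

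**Figure D2:**
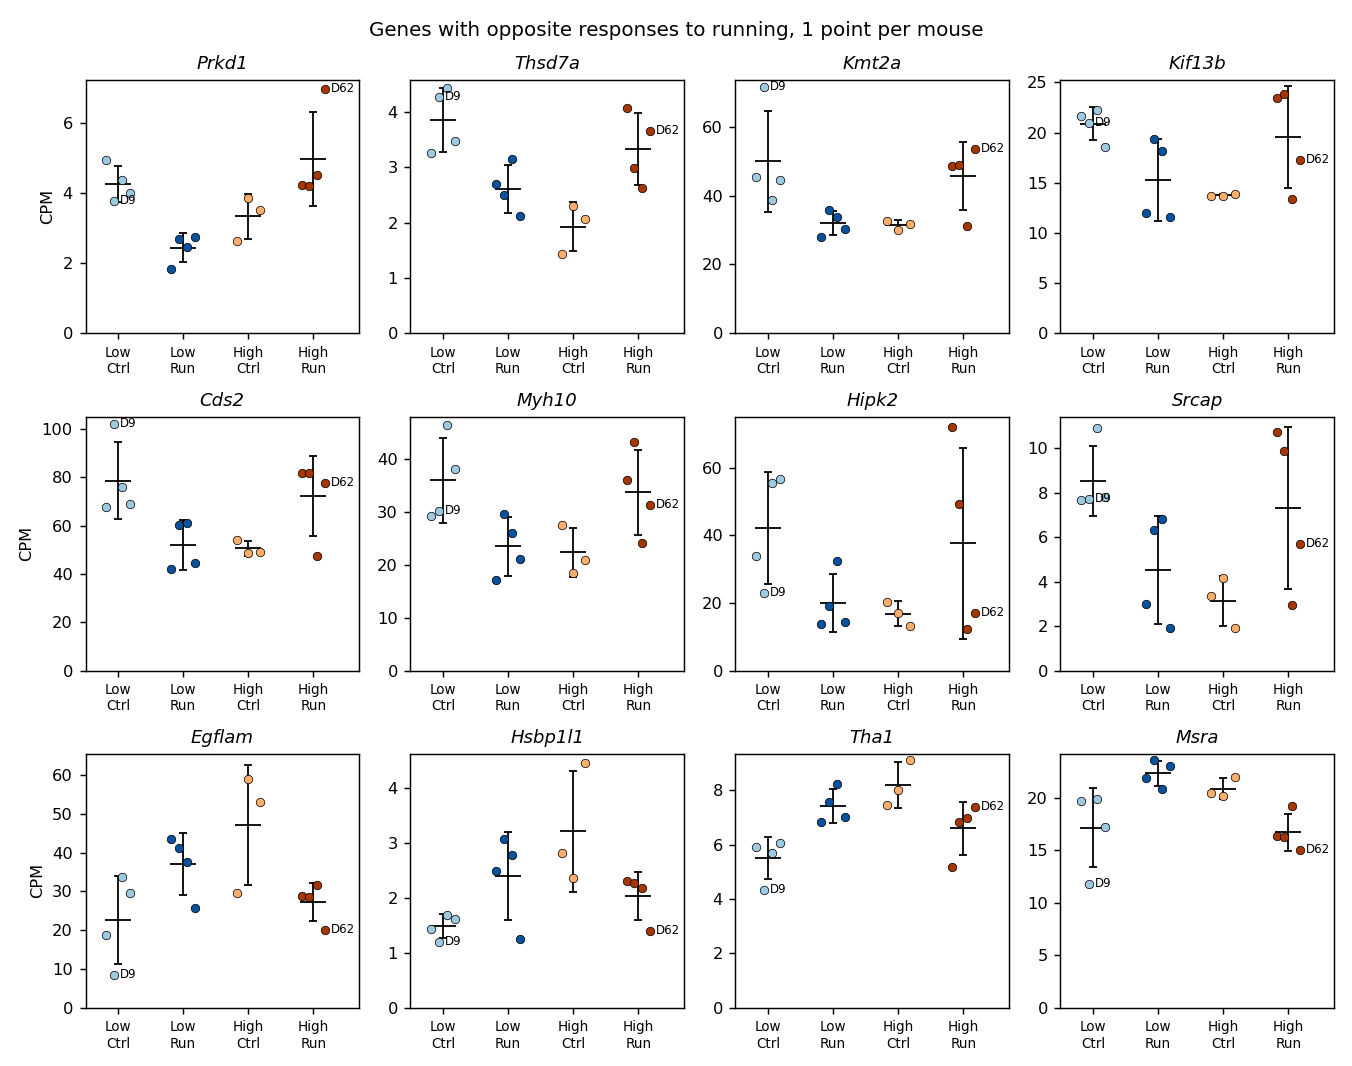
CPM of 12 genes on the y axis, with 1 point per mouse in the 4 groups on the x axis, the mean as a horizontal line and SD as bars (n = 4, 4, 3 and 4), mice D9 and D62 being labelled. The first 8 genes were lower in Low Run and higher in High Run mice, and the last 4 the other way round. Prkd1, Thsd7a, Tha1 and Msra are the ones in which Run and Control mice did not overlap in either frailty group.

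In the other direction, 3 protein-coding genes with a mean of at least 1 CPM were higher in Low Run and lower in High Run mice. Egflam encodes pikachurin, an extracellular ligand of dystroglycan. Egflam stood at 18.8, 8.36, 33.7 and 29.6 CPM in the Low Control mice and at 43.6, 41.2, 37.6 and 25.7 CPM in the Low Run mice. Egflam was 29.5, 59 and 53 CPM in the High Control mice and 28.9, 28.5, 31.6 and 20.1 CPM in the High Run mice. Run and Control overlapped in both frailty groups, D9 was the lowest of all mice, and the interaction was -1.5 (SE 0.49), with -1.1 (p under 0.05) without D9 and D62. Hsbp1l1, a relative of a heat shock factor binding protein, had an interaction of -1.35 (SE 0.42). Hsbp1l1 was lower in all High Run than in all High Control mice, by means of 2.03 ± 0.435 (SD, n = 4) and 3.21 ± 1.1 CPM (n = 3), while D68 lay among the Low Controls.

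The third gene, Ibsp, which encodes the bone matrix protein bone sialoprotein, rested on single mice. It had 836 counts in Low Run mouse D66, 193 in High Control mouse D23, 16 in D57, 4 in D52 and 0 in the other 11 mice. Its fitted interaction of -16.82 depends on groups at or near 0 and is no measure of size, and without D23 its p was over 0.05.

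Tiam2, described above, was named for its small interaction p, and the other 14 of the 28 genes were outside the named set and are given after their values were seen. Galnt15 and Xpnpep3 came after the named genes of their direction. Lncpint, Etnppl, Gm44763, Eppk1, Carmn and Pappa2, all lower in Low Run and higher in High Run mice, and Gm43605, AC132253.4, Gm42614, Fam221b, Cfap52 and Gm12199, all the reverse, are not annotated as protein-coding or averaged under 1 CPM. Lncpint, a long noncoding RNA, had an interaction of 2.23 (SE 0.5) and means of 2.52 CPM in Control and 1.23 in Run mice of the Low group, against 1.11 and 2.56 CPM in the High group.

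Run and Control mice failed to overlap in both frailty groups, in opposite directions, for 17 genes. The direction was lower in Low Run and higher in High Run mice for 7, which is 0.0414% of all genes tested, and 10 were the reverse, which is 0.0591%. None of the 17 was among the mitochondrial genes left out, but the lists of those sets were partly shortened. Beside Prkd1 and Thsd7a, the first group held Xpc, Fbxo46, Folh1, Gm44763 and Tnrc6b, of which Tnrc6b had an interaction of 0.21 with a p over 0.05 (0.13 without D9 and D62 with p over 0.05). The reverse group held Tha1, Msra, Mus81, Trim8, Dus2, Bckdk, Fam221b, 2310001H17Rik, AC132253.4 and Gm43605. Msra encodes methionine sulfoxide reductase A, which repairs oxidised methionine. Msra stood at 19.7, 11.8, 19.9 and 17.2 CPM in the Low Control mice and at 21.9, 23.6, 20.9 and 23 CPM in the Low Run mice. Msra was 20.5, 20.2 and 22 CPM in the High Control mice and 16.4, 16.3, 19.2 and 15 CPM in the High Run mice. Low Run mice were all above, and High Run mice all below, their Controls, and the interaction was -0.71 (SE 0.22). Tha1, threonine aldolase, had an interaction of -0.74 (SE 0.23), and Xpc, a DNA damage sensor of nucleotide excision repair, had one of 0.93 (SE 0.34) that was 0.39 (p under 0.05) without D9 and D62. Xpc was singled out after its values were seen, and was 14.9 CPM at this rounding in both Low Control mouse D98 and Low Run mouse D61.

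Among the other genes with the smallest negative p was Lbx1, a homeobox factor of limb muscle precursors. Lbx1 stood at 97.2, 62.4, 77.1 and 103 CPM in the Low Control mice and at 113, 90.5, 98.3 and 109 CPM in the Low Run mice. Lbx1 was 117, 114 and 116 CPM in the High Control mice and 73.1, 78.4, 101 and 69.4 CPM in the High Run mice. High Run mice lay below all High Controls, Low groups overlapped, and the interaction was -0.8 (SE 0.24). Pomgnt2, a glycosyltransferase that modifies dystroglycan, had one of -0.64 (SE 0.2), Ppp1r14c, an inhibitor of protein phosphatase 1, one of -0.9 (SE 0.29, -0.6 without D9 and D62 with p under 0.05), and Il4i1, an L-amino acid oxidase, one of -2.02 (SE 0.65). On the positive side, Zdhhc23, a palmitoyltransferase, had an interaction of 1.46 (SE 0.34), and Gda, guanine deaminase, one of 1.27 (SE 0.33).

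Unequal responses were defined by an interaction p under 0.05, a p under 0.01 in one frailty group and a response in the other under 0.25 times its size. Of the 11526 genes that could be named, 72 met this with the larger response in Low mice, of which 56 were lower in Low Run, and 43 with the larger response in High mice, of which 20 were higher in High Run. Of all genes outside the mitochondrial sets, 13.5% had a Low p under 0.05 and 5.27% a High p under 0.05. The counts of 72 and 43 are therefore not compared.

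Among the Low-only genes, Zbtb39 and Zfp275 encode zinc finger proteins. Zbtb39 stood at 10.9, 17.1, 9.29 and 10.9 CPM in the Low Control mice and at 5.38, 7.46, 7.97 and 5.71 CPM in the Low Run mice. Zbtb39 was 8.26, 7.75 and 7.66 CPM in the High Control mice and 9.51, 10.4, 5.54 and 10.4 CPM in the High Run mice. The Low Run mice lay below all Low Controls, High Run and High Control overlapped, and the log2 responses were -0.86 (SE 0.23) in Low and 0.19 (SE 0.24) in High mice. The interaction of Zbtb39 was 1.05 (SE 0.33), that of Zfp275 0.78 (SE 0.25) and that of Ube2o, a ubiquitin-conjugating enzyme, 0.74 (SE 0.26).

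Tns1 encodes tensin, which links integrins at focal adhesions to actin. Tns1 stood at 864, 875, 508 and 549 CPM in the Low Control mice and at 289.6, 419, 427 and 324 CPM in the Low Run mice. Tns1 was 519, 467 and 423 CPM in the High Control mice and 502, 524, 302 and 738 CPM in the High Run mice. The Low groups were separated, with D8 and D9 the highest, and the interaction was 1.07 (SE 0.36, 0.7 with length and GC offsets with p under 0.05). Acss1, an acetyl-CoA synthetase of mitochondria, was not among the mitochondrial genes left out, whose set lists were partly shortened. Acss1 had 336 CPM in D9 and between 28.4 and 93.7 CPM in all other mice. Its interaction of 2.21 (SE 0.76) was 0.76 (p over 0.05) without D9 and D62.

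Among the High-only genes, Rin1, a Ras effector that activates Rab5, had the smallest p. Rin1 stood at 1.74, 1.78, 3.01 and 2.82 CPM in the Low Control mice and at 1.89, 2.67, 1.66 and 1.45 CPM in the Low Run mice. Rin1 was 1, 1.33 and 0.67 CPM in the High Control mice and 3.87, 4.45, 1.71 and 2.3 CPM in the High Run mice. All High Run mice exceeded the High Controls, and all High Controls lay below every other mouse. The interaction was 1.88 (SE 0.5) and the log2 responses were -0.28 (SE 0.33) in Low and 1.6 (SE 0.38) in High mice.

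Myh3 encodes embryonic myosin heavy chain, which regenerating fibres express. Myh3 stood at 12.5, 15.1, 16.1 and 16.1 CPM in the Low Control mice and at 12.4, 14.4, 14.8 and 8.62 CPM in the Low Run mice. Myh3 was 11.6, 4.8 and 6.89 CPM in the High Control mice and 10.5, 15.5, 23.8 and 26.2 CPM in the High Run mice. D49 lay within the High Control range and the other 3 High Run mice above it, with the highest values in D53 and D62. The interaction was 1.54 (SE 0.43), and 1.35 (p under 0.05) without D9 and D62. Only Myh3 of the 18 measured genes of satellite cells and regeneration had an interaction p under 0.05, where 5.24% of all genes tested were positive.

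Anxa4, a calcium-dependent membrane-binding annexin, was higher in all High Run mice than in High Controls and had an interaction of 0.7 (SE 0.22). Slc37a4 encodes the glucose phosphate transporter of the endoplasmic reticulum. Slc37a4 stood at 75.9, 31.7, 90.8 and 89.3 CPM in the Low Control mice and at 110.2, 96.2, 95.8 and 50.1 CPM in the Low Run mice. Slc37a4 was 115, 142 and 163 CPM in the High Control mice and 71.1, 69.6, 70.1 and 35.4 CPM in the High Run mice. High Run lay wholly below High Control, D9 and D62 were the lowest mice of their groups, and the interaction was -1.48 (SE 0.46), or -1.04 (p under 0.05) without them.

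**Figure D3:**
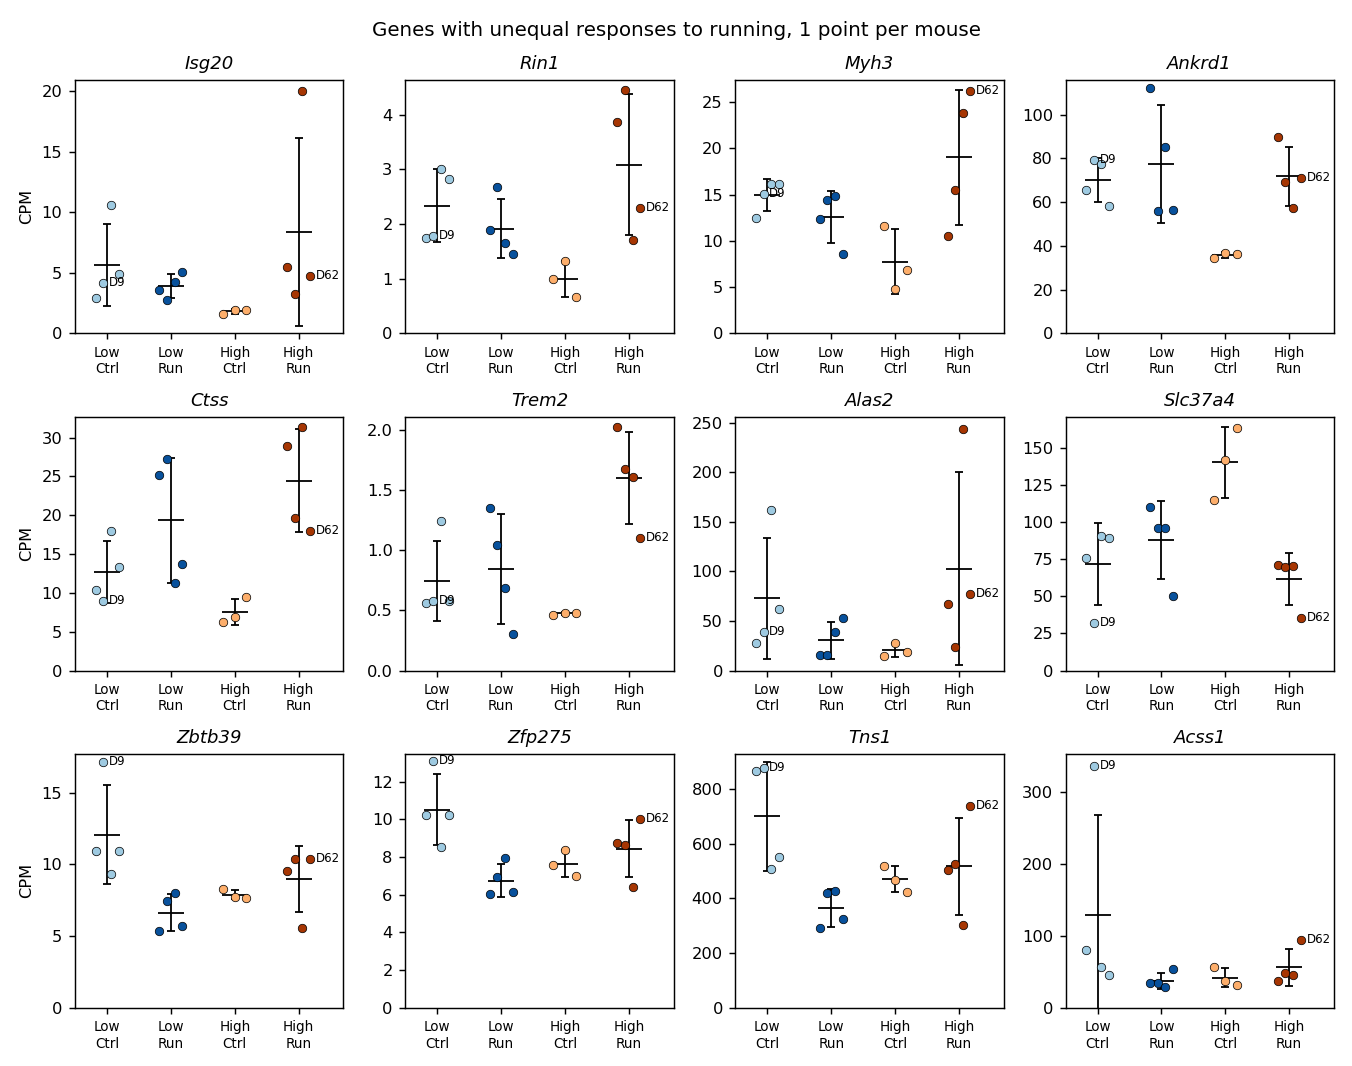
CPM of 12 genes on the y axis by group on the x axis, with 1 point per mouse, the mean as a line and SD as bars cut at 0 (n = 4, 4, 3 and 4), mice D9 and D62 being labelled. In the first 8 genes the Low groups overlap, while the High groups are apart in all but Myh3 and Alas2, and in the last 4 the Low response is the larger one. For Acss1 the single value of D9 sets the Low Control mean.

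Immediate early genes and the AP-1 family formed the pathway list with the lowest median interaction, -0.72 over 22 genes, against 0.03 over all genes tested. At p under 0.05, 5 had a negative interaction and 0 a positive one, where the shares over all genes were 2.69% and 5.24%. Fosb and Junb, described below, are among the genes that the study chose on these samples. The count is therefore not independent evidence of a direction. The list's median response was 0.06 in Low and -0.68 in High mice. Fos and Fosb are subunits of AP-1, Egr1 is a zinc finger factor induced by serum and contraction, and Nr4a1 and Nr4a2 are orphan nuclear receptors.

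Fos stood at 270.3, 67.1, 32.7 and 41.6 CPM in the Low Control mice and at 67.3, 68.5, 107 and 222 CPM in the Low Run mice. Fos was 177, 67.2 and 130.5 CPM in the High Control mice and 36.7, 47.9, 12.7 and 14.8 CPM in the High Run mice. Every High Run mouse was below every High Control mouse, whereas the Low groups overlapped, with the highest values in D8 and D68. The log2 responses were 0.17 (SE 0.62) in Low and -2.16 (SE 0.68) in High mice, and the interaction was -2.33 (SE 0.92), or -1.96 (p over 0.05) without D9 and D62. Fosb spread further. Fosb stood at 162, 11.5, 3.98 and 7.6 CPM in the Low Control mice and at 19, 38.8, 33.8 and 97.9 CPM in the Low Run mice. Fosb was 96.3, 18.6 and 58.9 CPM in the High Control mice and 13.4, 5.22, 3.63 and 2.2 CPM in the High Run mice. Its interaction was -3.29 (SE 1.4, -2.68 without D9 and D62 with p over 0.05), and in High Run mice it stayed below the lowest High Control value of 18.6 CPM.

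Egr1 averaged 118 ± 56.7 CPM in High Control (SD, n = 3) and 24.7 ± 10.4 in High Run mice (n = 4), without overlap, and its interaction was -2.5 (SE 0.85). Nr4a1 had an interaction of -1.21 (SE 0.41) and Nr4a2 one of -1.27 (SE 0.51), and for both High Control mouse D67 lay among the High Run mice. With 1 mouse left out, the p was over 0.05 without D68 for Fos, without D23 for Nr4a2 and without D9, D23 or D62, each alone, for Fosb, while those of Egr1 and Nr4a1 were under 0.05 whichever mouse was left out. Junb, an AP-1 subunit, had an interaction of -1.32 (SE 0.69) with a p over 0.05, and -1.44 (p over 0.05) without D9 and D62. Without D9 and D62 the list's median was -0.93 with 5 negative genes, and with single mice left out the number ran from 2 (without D23) to 8 (without D8).

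FoxO targets and other atrophy genes had the highest median of the pathway lists, 1.05 over 20 genes, and 6 positive genes (5.24% over all genes tested), but both values rested on D9 and D62. All 20 had a negative response in Low mice and 17 a positive one in High mice. Of all genes outside the mitochondrial sets, 29.4% were lower in Low Run and higher in High Run, 19.5% lower in both and 28.6% higher in both. Trim63 and Fbxo32 encode muscle ubiquitin ligases, Fkbp5 a glucocorticoid-induced chaperone, Eif4ebp1 a repressor of translation, Foxo1 a FoxO factor itself and Cdkn1a the cell cycle inhibitor p21.

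Trim63 stood at 1413, 6083, 452 and 212 CPM in the Low Control mice and at 427, 308, 385 and 572 CPM in the Low Run mice. Trim63 was 736, 458 and 589.9 CPM in the High Control mice and 363, 364, 401 and 3834 CPM in the High Run mice. D9 and D62 were far above the other mice of their groups, and D8 was the only other mouse above 1000 CPM. The interaction was 3.33 (SE 1.34) with all mice and 0.05 (p over 0.05) without D9 and D62, and with voom's sample weights it was -0.02. Fbxo32 stood at 1726, 3839, 566 and 369.9 CPM in the Low Control mice and at 441, 411, 415 and 772 CPM in the Low Run mice. Fbxo32 was 859, 458 and 826 CPM in the High Control mice and 574, 445, 540.3 and 3293 CPM in the High Run mice. The same mice led, and the interaction of 2.44 (SE 1.03) was 0.34 (p over 0.05) without them. Fkbp5 was 483 CPM in D9 and 409.7 in D62, and its interaction of 2.82 (SE 1.09) was 0.82 (p over 0.05) without the pair.

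Over the list, leaving out D9 alone gave a median of 0.42, leaving out D62 alone 0.5 and leaving out both -0.05, each with 0 genes at p under 0.05. The promoter of Trim63, the gene of the list with the largest interaction, is shown with the motif that FoxO factors are known to bind. A match is a description, not a binding site. The stretch is chr4:134314870-134315169 (GRCm38.p6, plus strand, RefSeq), from 250 bases before to 50 after the start. The motif GTAAACA, searched on both strands, is in capitals as its reverse complement.
Trim63: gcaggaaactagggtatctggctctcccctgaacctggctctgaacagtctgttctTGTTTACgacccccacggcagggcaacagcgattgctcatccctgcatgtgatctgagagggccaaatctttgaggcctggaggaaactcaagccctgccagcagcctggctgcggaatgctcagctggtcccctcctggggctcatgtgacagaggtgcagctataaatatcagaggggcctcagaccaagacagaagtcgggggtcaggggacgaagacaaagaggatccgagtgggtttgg
The motif begins 194 bases before the start, and was present in 3.65% of 32851 mouse promoters of this length and in the promoters of 2 of the 16 genes of the list with a sequence, Trim63 and Sesn1.

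**Figure D4:**
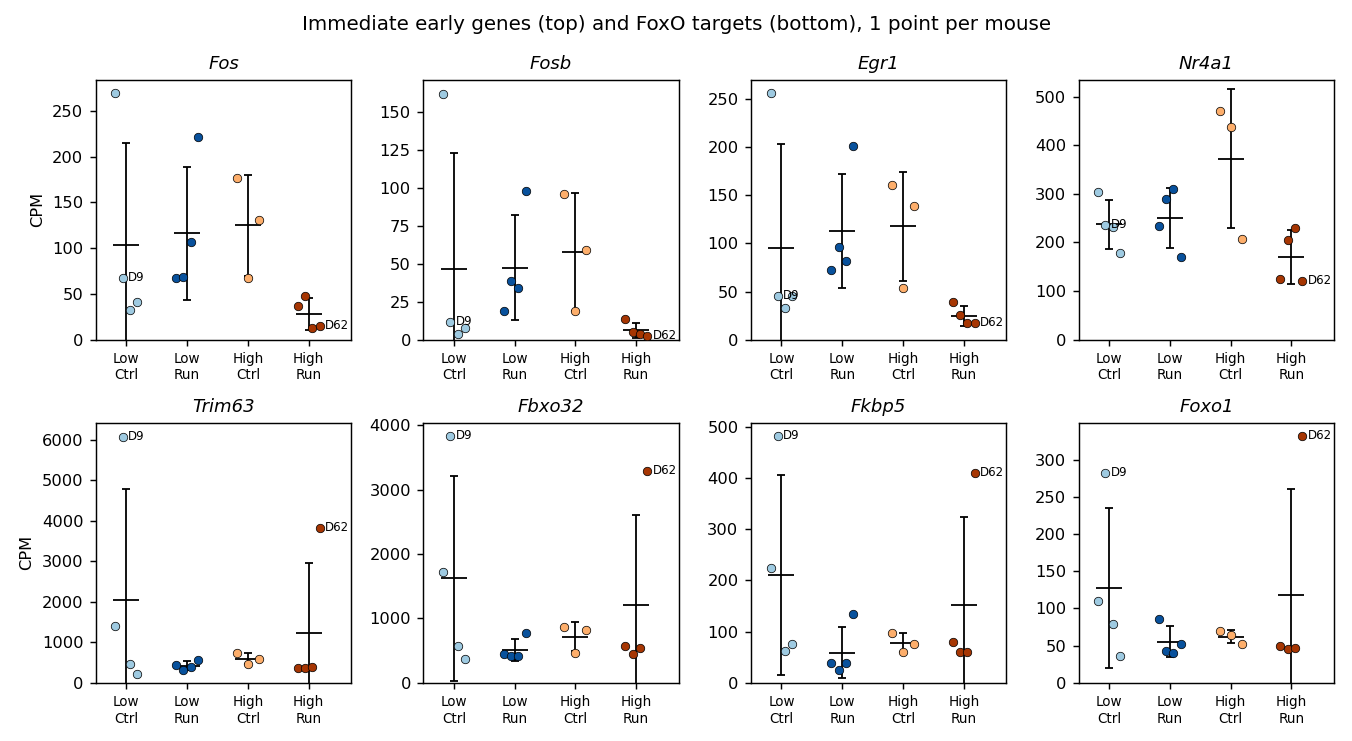
CPM of 4 immediate early genes (top) and 4 atrophy genes (bottom) on the y axis by group on the x axis, with 1 point per mouse, the mean as a line and SD as bars cut at 0 (n = 4, 4, 3 and 4), mice D9 and D62 being labelled. For Fos, Fosb and Egr1 all High Run mice lie below all High Control mice, while for the atrophy genes D9 and D62 are the highest mice of their groups.

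Chromatin modifiers had the most members with a positive interaction, 15 of 36, with 0 negative (5.24% and 2.69% over all genes tested), and a median of 0.59. The response was negative in Low mice for 34 of them and, in High mice, 31 were higher in High Run than in High Control mice. Of all genes outside the mitochondrial sets, 29.4% were lower in Low Run and higher in High Run, 19.5% lower in both and 28.6% higher in both. Among the 15 were the H3 lysine 4 methyltransferases Kmt2a, Kmt2b, Kmt2c, Kmt2d, Setd1a and Setd1b. Kmt2b had an interaction of 1.52 (SE 0.54), Setd5, a SET domain protein, one of 0.84 (SE 0.31, 0.57 without D9 and D62 with p over 0.05, 0.49 with length and GC offsets with p over 0.05) and Chd8, a chromatin remodeller, one of 0.53 (SE 0.18, 0.21 with length and GC offsets with p over 0.05). Without D9 and D62 the count was 3 and the median 0.26. With length and GC offsets the count was 5 and the median 0.37, and with single mice left out the count ran from 4 (without D57) to 25 (without D53).

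Kmt2b read 51.3, 112, 48.4 and 38.9 CPM in Low Control, 23.9, 41.5, 36.9 and 18 in Low Run, 35.9, 31.1 and 29.4 in High Control and 44, 40.8, 21.3 and 70.7 in High Run mice. D9 and D62 had its highest values, D49 and D52 also exceeded the High Controls, and D53 was below them. Without D9 and D62 the interaction of Kmt2b was 0.76 (p over 0.05).

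Genes of macrophages and phagocytes had a median of 0.42 over 22 genes, with 5 positive and 0 negative (5.24% and 2.69% over all genes tested). Ctss and Lgals3 of this list, and Trem2 below, are among the genes that the study chose on these samples. The count is therefore not independent evidence of a direction. The list's median responses were positive in both frailty groups, 0.47 in Low and 0.81 in High mice. Ctss encodes the lysosomal protease cathepsin S. Ctss stood at 10.4, 8.94, 18 and 13.4 CPM in the Low Control mice and at 25.2, 27.3, 11.3 and 13.7 CPM in the Low Run mice. Ctss was 6.29, 6.94 and 9.43 CPM in the High Control mice and 28.9, 19.6, 31.4 and 18 CPM in the High Run mice. All High Run mice were above all High Controls, the Low groups overlapped, and the interaction was 1.08 (SE 0.44).

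Trem2, a receptor of lipid-handling macrophages, was at most 2.02 CPM in any mouse. Trem2 stood at 0.564, 0.58, 1.24 and 0.579 CPM in the Low Control mice and at 1.35, 1.04, 0.682 and 0.301 CPM in the Low Run mice. Trem2 was 0.463, 0.48 and 0.479 CPM in the High Control mice and 2.02, 1.67, 1.61 and 1.1 CPM in the High Run mice. The High groups were apart and the Low groups overlapped, at an interaction of 1.54 (SE 0.6). The p of Ctss was over 0.05 without D23 and that of Trem2 without D11. Gpnmb, a glycoprotein of the same cells, had an interaction of 1.58 (SE 0.48, 0.94 without D9 and D62 with p under 0.05), and Cd163, a scavenger receptor of resident macrophages, had one of 1.11 (SE 0.35) with log2 responses of -0.59 (SE 0.24) in Low and 0.53 (SE 0.26) in High mice. Without D9 and D62 the list had 10 positive genes and a median of 0.74, and without D11 it had 3 and a median of 0.15. The 9 macrophage markers had 1 positive gene, Cd163, and a median of 0.41. Their summed CPM ran from 125 to 239 in Low Control, 200.2 to 274 in Low Run, 105 to 166 in High Control and 146 to 311 in High Run mice, and its part in these values was not tested.

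Interferon-induced genes had median responses of 0.57 in Low and 0.75 in High mice, and their median interaction was 0.11 over 35 genes. The list had 2 positive and 0 negative genes, where the shares over all genes tested were 5.24% and 2.69%. Isg20, one of the 2, is also among the genes that the study chose on these samples. Isg20 encodes an interferon-induced exonuclease. Isg20 stood at 2.91, 4.18, 10.6 and 4.9 CPM in the Low Control mice and at 3.62, 2.74, 4.26 and 5.06 CPM in the Low Run mice. Isg20 was 1.62, 1.92 and 1.91 CPM in the High Control mice and 5.52, 3.3, 20 and 4.79 CPM in the High Run mice. All High Run mice exceeded the High Controls, D53 was the highest mouse and D11 the next, and the interaction was 2.73 (SE 0.75). Rsad2, the antiviral protein viperin, had the same 2 leading mice, at 51.4 and 46.1 CPM, and an interaction of 2.17 (SE 0.73). The list's median turned to -0.31 without D11.

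Of the 19 genes that the study names or lists, 7 had a positive and 1 a negative interaction at p under 0.05 (5.24% and 2.69% over all genes tested), with a median of 0.78. The study chose them on these samples, so this count is not independent evidence of a direction. Lgals3, galectin 3, had an interaction of 0.99 (SE 0.43, 0.6 without D9 and D62 with p over 0.05), Fcgr2b, an inhibitory Fc receptor, one of 0.89 (SE 0.35) and Tubb6, a tubulin, one of 0.81 (SE 0.37). With 1 mouse left out, the p was over 0.05 for Lgals3 without D62, for Fcgr2b without D67 and for Tubb6 without D52. Iigp1, an interferon-induced GTPase, had log2 responses of 1.43 (SE 0.73) in Low and 1.5 (SE 0.82) in High mice, and the interaction was 0.07 (SE 1.07, 0.57 without D9 and D62 with p over 0.05). Tap1, the peptide transporter of antigen presentation, had one of 0.22 (SE 0.61, 0.56 without D9 and D62 with p over 0.05), and Lcn2, lipocalin 2, one of 0.18 (SE 1.44, -0.49 without D9 and D62 with p over 0.05). The p was over 0.05 for Iigp1, Tap1 and Lcn2, as it was for Nlrc5, Gbp7, H2-Q4, Ifi47, Ccl8, Mpeg1, Junb and Ptgs2, whose interactions ran from -1.59 to 1.68. Without D9 and D62 those interactions ran from -1.44 (Junb) to 2.11 (Ccl8). Of the 8 inflammation genes among them, 2 had a positive and 1 a negative interaction, and their median of 0.74 was -0.23 without D11.

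All 5 erythroid markers had a positive interaction (5.24% over all genes tested), with a median of 3.25. Alas2 starts haem synthesis in red cell precursors. Alas2 stood at 27.8, 39.1, 162 and 62.3 CPM in the Low Control mice and at 15.5, 15.4, 38.5 and 52.8 CPM in the Low Run mice. Alas2 was 15.1, 28.2 and 18.4 CPM in the High Control mice and 67.4, 23.3, 244 and 76.8 CPM in the High Run mice. Groups overlapped in both frailty groups, and the highest values were those of D53 and D11. The interaction was 3.58 (SE 0.98) and that of Hbb-bs, a beta globin, was 3.31 (SE 0.94). Hba-a1 and Hba-a2, at 3.06 and 3.25, are near-identical copies whose counts could be split. The summed CPM of the 5 markers was 2380.2 in D11 and 3859.8 in D53, and 243 to 1335 in the other mice. D11 and D53 were also the highest mice for Isg20, Rsad2 and Trim10, a ubiquitin ligase gene with 3.49 and 3.86 CPM in them, and the part of blood in those values was not tested.

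Schwann cell markers were positive in 5 of 7 genes (5.24% over all genes tested), with a median of 0.99. Prx, which encodes the myelin protein periaxin, had an interaction of 1.31 (SE 0.53, 0.98 without D9 and D62 with p over 0.05). Mbp and Ncmap, also of myelin, had 1.09 (SE 0.47, 0.76 without D9 and D62 with p over 0.05, 0.89 with length and GC offsets with p over 0.05) and 1.67 (SE 0.66, 1.29 without D9 and D62 with p over 0.05). The summed CPM of the 7 markers was 431 in D62 against 106 to 279.8 in the other 14 mice. Without D62 the count was 1, without D8 it was also 1, and without D9 and D62 it was 0 with a median of 0.72.

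Over all genes tested 5.24% were positive and 2.69% negative. Markers of T and B cells gave 2 negative genes of 8 and a median of -1.68, which was 0.41 without Low Run mouse D61, whose summed level was 38.2 CPM against 0.812 to 6.86 elsewhere. Neutrophil markers gave 0 of 8 and a median of -1.16, which was 1.6 without Low Run mouse D68. Endothelial markers gave 1 positive gene of 7, Cldn5, whose p was over 0.05 without D9 and D62, and medians were 0.37 for them, -0.5 for fibroblast, 0.14 for adipocyte, 0.13 for smooth muscle, -0.45 for tendon and -0.29 for skeletal muscle markers, of which 0 genes had p under 0.05. The fibroblast median turned to 0.1 without D9 and D62.

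Genes of mechanical strain and sarcomere repair gave 4 positive and 1 negative of 20 (5.24% and 2.69% over all genes tested), with a median of 0.43. Ankrd1 encodes a stretch-induced ankyrin repeat protein of the sarcomere. Ankrd1 stood at 65.3, 79.3, 77.6 and 58.4 CPM in the Low Control mice and at 112, 55.8, 85.3 and 56.4 CPM in the Low Run mice. Ankrd1 was 34.4, 36.8 and 36.5 CPM in the High Control mice and 89.9, 69.1, 57.4 and 70.8 CPM in the High Run mice. High Controls were tightly grouped and below every other mouse, High Run values lay at the level of both Low groups, and the interaction was 0.86 (SE 0.31). Ankrd2, its relative, had one of 1.88 (SE 0.72, 1.04 without D9 and D62 with p over 0.05), Flnc, filamin C, one of 1.23 (SE 0.48, 0.68 without D9 and D62 with p over 0.05) and Actc1, cardiac actin, one of -2.29 (SE 0.89, -1.8 without D9 and D62 with p over 0.05), in the opposite direction. The count of positive genes was 1 without D9 and D62.

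In the lists of this paragraph, counts of positive genes stand against 5.24% over all genes tested. Fatty acid and PPAR genes gave 3 positive of 22, with a median of 0.39, led by Lpin1, a phosphatidate phosphatase, at 1.47 (SE 0.55), which was 0.46 (p over 0.05) without D9 and D62. Ppara, the fatty acid sensing nuclear receptor, was at 1.33 (SE 0.51), and 1.3 (p under 0.05) without them. Plin4, a lipid droplet protein, was at 1.63 (SE 0.72, 1.51 with length and GC offsets with p over 0.05), and 0.29 (p over 0.05) without them. Glycolysis and glucose uptake gave 1 positive of 25, Tbc1d1, which restrains glucose transporter traffic, and amino acid and ATF4 stress genes 2 of 23, Trib3 and Xbp1, with 0 positive genes in either list without D9 and D62.

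For the next lists, too, the positive share over all genes tested was 5.24%. Clock genes gave 2 positive of 19, Cry2, a repressor of the clock, at 1.84 (SE 0.69, 0.41 without D9 and D62 with p over 0.05) and Rora, an activator of Arntl, at 1.29 (SE 0.59, 0.18 without D9 and D62 with p over 0.05, 1.08 with length and GC offsets with p over 0.05). Cry2 was 338 CPM in D9 and 234 CPM in D62, against 59.8 to 100.1 CPM in the other mice. Without D9 and D62 the list had 0 genes and a median of 0.03. SUMO pathway genes gave 2 of 18, with Ranbp2 among them, and 0 without that pair. Oxidative stress and metal genes gave 2 of 18, Nox4 and Hmox1, and myokines and growth factors 2 of 21, Igfbp3 and Inhbb, again with 0 in both lists without the pair.

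Notch genes gave 2 positive, Notch2 and Rbpj, and 1 negative, Hes1, of 21. The shares over all genes tested, for this list and those that follow, were 5.24% positive and 2.69% negative. Notch2, a receptor, had an interaction of 0.68 (SE 0.24, 0.37 with length and GC offsets with p over 0.05), and Hes1, a target of the pathway, one of -0.61 (SE 0.26, -0.53 without D9 and D62 with p over 0.05, -0.53 with length and GC offsets with p over 0.05). With length and GC offsets the Notch list had 0 genes with p under 0.05 in either direction. Vascular genes gave 2 of 23, Flt4 and Egln3, denervation and synapse genes 1 of 20, Musk, extracellular matrix genes 1 of 24, Lox, and heat shock genes 1 positive, Hspb7, and 1 negative, Dnajb1, of 18. The p of Musk and that of Lox were over 0.05 without D9 and D62. Slow fibre, fast fibre, calcium handling, proteasome and splicing lists held 0 genes with p under 0.05 in either direction. Their medians were 0.4, -0.23, -0.13, 0.32 and 0.21, and the last pair turned to -0.04 and -0.05 without D9 and D62. The median interactions of the other lists were 0.36 for the satellite cell and regeneration, -0.21 for the glycolysis, 0.38 for the ATF4 stress, 0.33 for the clock, 0.28 for the SUMO, 0.27 for the oxidative stress, -0.28 for the myokine, 0.31 for the Notch, 0.23 for the vascular, 0.25 for the denervation, -0.12 for the extracellular matrix and -0.11 for the heat shock genes. The extracellular matrix median turned to 0.23, the SUMO median to -0.03 and the myokine median to 0.02 without D9 and D62.

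**Figure D5:**
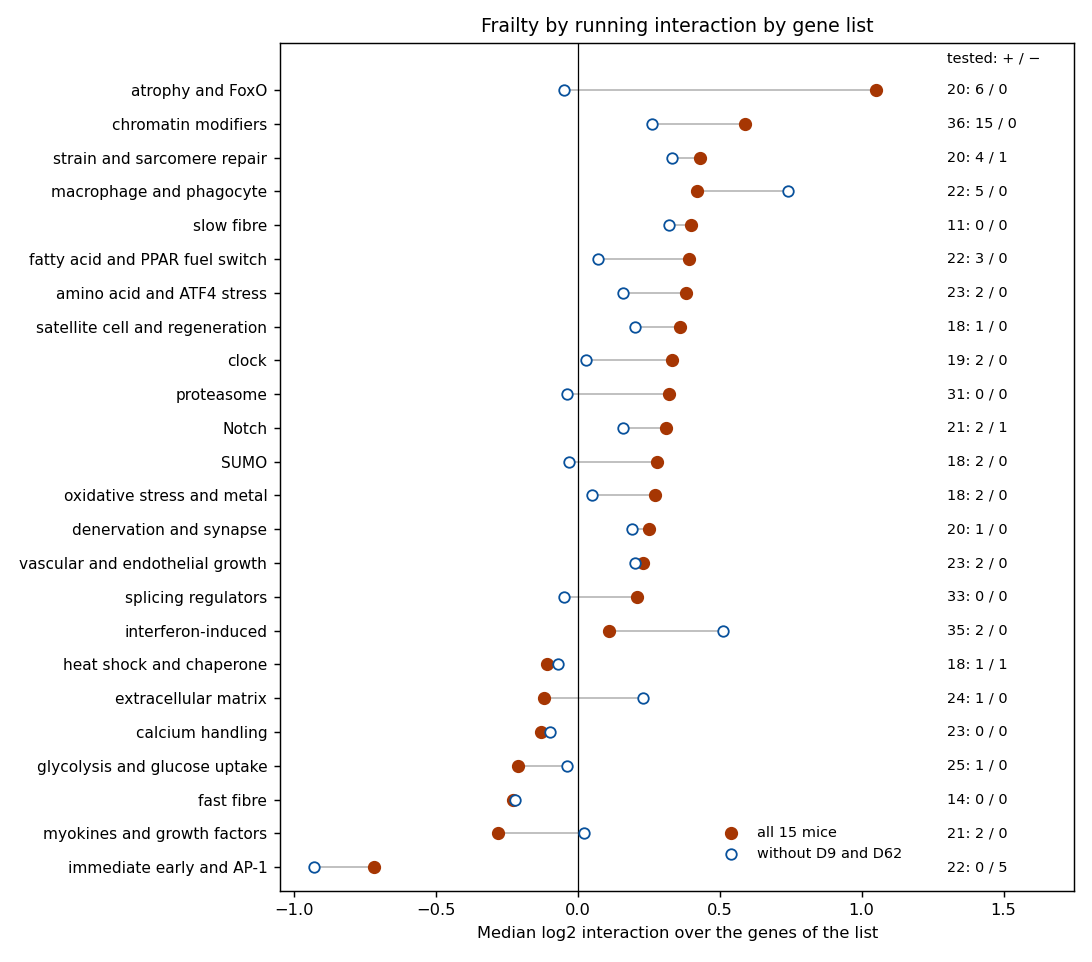
Median log2 interaction (x axis) over the genes of each pathway list (y axis), with all 15 mice as filled points and without D9 and D62 as open points, and on the right the genes tested and those with a positive or negative interaction at p under 0.05. The atrophy and FoxO list moves from 1.05 to -0.05, while the immediate early list stays at the low end.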

How the data were processed

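Gastrocnemius RNA of 15 mice was sequenced, 3 to 4 per group. The authors aligned reads with STAR to mm10 and counted them per gene with featureCounts against Ensembl build 100, and the deposited table holds raw counts. The submitters' processing notes list STAR 2.7.9a, Subread 2.0.3 and DESeq2 1.32.0. A transformed copy of the same counts was not used. Mice with 19395125 to 30699216 counts were not pooled, and no p-value corrects for a batch, since none is given in the sources used here.

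Genes were filtered with filterByExpr, scaled by TMM and tested with edgeR 4.0.16 (R 4.3.3) by quasi-likelihood F-tests with 1 mean per group, all 15 mice in 1 fit and Benjamini-Hochberg adjustment over 16920 genes at a threshold of 0.1. SE values are the log2 difference over the square root of F. The steps were tested on simulated counts with a common spread and no outlying mice, so that test does not cover mice such as D9 and D62. Positions come from GENCODE annotation of GRCm38. Mitochondrial genes (616) were set aside by the study's gene sets, which were partly shortened, and by symbol. Named genes were protein-coding with a mean of at least 1 CPM and were the 10 smallest p in each direction, up to 10 opposite genes in each direction, up to 5 genes responding in 1 frailty group, up to 4 genes per list with p under 0.05, and the study's 19 genes at any level. They numbered 100. The members and gene lists were chosen with earlier results of these data known. Alternatives were RLE and upper-quartile scaling, 2 other count filters, DESeq2 1.42.0, limma 3.58.1 voom with sample weights, length and GC offsets, and leaving out mice. Results of a few genes are not reported here.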

Additional observations from a re-analysis of the deposited data

Results flagged for a closer look

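Within groups of 4 mice, the highest or lowest mouse was compared with its nearest neighbour, on the log2 CPM scale, as a share of the group's range. Of 300 such groups over the named genes, 27 (9%) had a share above Dixon's 95% critical value, where chance gives about 5%. High Run mouse D62 stood apart 9 times. It was the highest for Prkd1 (0.857), Fkbp5 (0.845), Trim63 (0.958), Fbxo32 (0.874), Plin4 (0.869), Igfbp3 (0.94) and Nox4 (0.865), and the lowest for Slc37a4 (0.969) and Hsbp1l1 (0.887). Low Control mouse D9 was the lowest for Slc37a4 (0.83) and Ppp1r14c (0.892) and the highest for Ranbp2 (0.895). Low Control mouse D11 was the highest for Srcap (0.958), Cd163 (0.8292), Ccl8 (0.844) and Trem2 (0.971), and D8 of the same group for Egr1 (0.849) and Nr4a2 (0.868).

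High Run mouse D53 was the lowest for Cds2 (0.907), Zbtb39 (0.851) and Setd5 (0.889). In the same group D52 was the highest for Ibsp (1.0) and Ccl8 (0.888), and D49 the lowest for Nr4a2 (0.862). Among Low Run mice, D68 was the highest for Fbxo32 (0.888) and Lcn2 (0.942), and D66 the lowest for Mbp (0.871).

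Among the named genes, 4 had Run and Control mice wholly apart in opposite directions in the 2 frailty groups. Their interactions were 1.38 for Prkd1, 1.35 for Thsd7a, -0.74 for Tha1 and -0.71 for Msra, and none passed the adjusted threshold in edgeR.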

How the results depend on the processing

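No adjusted call was made under any alternative that kept the count filter or made it stricter, nor with DESeq2, which was run without that filter. In edgeR without a filter, 4 genes passed (Alas2, Ibsp, Hbb-bs and Gm43605), 2531 genes had p under 0.05 (1768 positive, 763 negative) and 112 had opposite responses. With at least 10 counts in every mouse 18 genes had opposite responses, and voom gave 688 negative and 96 opposite genes. Without D9 and D62 together, 721 genes had p under 0.05, 445 of them positive, and 486 of the 1285 genes and 14 of the 28 opposite genes were kept. Leaving out 1 mouse gave 755 (without D9) to 2187 (without D53) genes, 473 (D9) to 1416 (D53) positive, 270 (D25) to 771 (D53) negative and 14 (D62) to 128 (D53) opposite. Without D67 there were 804 genes and 524 positive, without D62 842 and 542, and without D57 and D25 18 and 17 opposite genes. The cause was not tested.

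Of 100 named genes, 6 changed sign. Trim63 was -0.02 with voom. With 1 mouse left out, Iigp1 ran from -0.91 (without D11) to 1.4 (D57), Ccl8 from -0.8 (D11) to 2.26 (D57), Tap1 from -0.33 (D11) to 0.51 (D57), Gbp7 from -0.24 (D11) to 1.17 (D57) and Lcn2 from -0.45 (D9) to 3.48 (D68). Lcn2 was -0.49 without D9 and D62. The median of 14 of 37 lists changed sign under at least 1 alternative. No paired analysis was possible because the groups share no replicate numbers.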
